A study of Mus musculus with 36 samples.

Results

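The genes named as DEAD and DEAH box RNA helicases were 44, 29 of them Ddx and 15 Dhx, out of 13588 named genes with a detected probe. They were taken by name alone: every probe detected in at least 1 tissue whose annotated symbol starts with Ddx or Dhx followed by a number. Helicases under other names were not members, and Ddx11, a DNA helicase, was. This gave 70 probes for the 44 genes. Of these genes 27 had 1 probe, 11 had 2, 3 had 3 and 3 had 4. The authors counted 60 of the probes as detected in liver, 64 in muscle, 66 in brain and 68 in kidney, and 59 in all 4 tissues. Only Dhx35 had no detected probe in 1 tissue, liver. The helicases lie on 16 chromosomes, and Ddx3x is the X-linked one. No detected probe carried the name of its Y-linked copy Ddx3y, and its retroposed copy D1Pas1 was not analysed here.

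The samples were brain, kidney, liver and muscle of 12-week-old female mice of the random bred MF1 stock, on 36 arrays. In each tissue there were 3 pools of 39,XmO mice, whose single X came from the mother, 3 of 39,XpO mice, whose single X came from the father, and 3 of 40,XX mice, with 3, 3 and 2 mice in pools 1, 2 and 3. The XpO and XX mice came from crosses of females carrying the X inversion In(X)1H and the Paf mutation with normal males. The XmO mice came from normal females and males with the rearranged Y of XPafY*. All X chromosomes traced to 1 progenitor. XmO against XpO, and XmO against XX, are therefore also comparisons of crosses. The design text counts 1 XX mouse fewer than the pool sizes add up to. XmO and XpO pools together are called XO pools. Levels are log2 intensities after quantile normalisation, and every difference is XO minus XX or XmO minus XpO on that scale. Levels of different helicases were not compared, and probes detected in no tissue serve only to show the background. In bulk tissue, less RNA per cell and fewer cells of a type cannot be told apart.

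DEAD and DEAH box proteins use ATP to open RNA duplexes or to move proteins off RNA, and are named for the letters of an amino acid motif in their core. They act at nearly every step of RNA life: ribosome assembly in the nucleolus, splicing, export, translation and decay, and some sense viral RNA. Ddx3x works in translation initiation. Its human counterpart is among the genes that can be transcribed from the inactive X, so that a female with 2 X chromosomes can have more of its RNA than one with a single X.

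Sequences are shown first for members on which the liver comparisons turn, as 3 probes and 4 promoters, with the promoter of Ddx25. The first 30 of the 50 bases of a probe, as the study's supplement gives them, were these.
Ddx3x probe: cagcaggctttattttaaatgccgattcac
Dhx30 probe: gagcctctcttccgctggggctatgtacag
Ddx47 probe: ggtgtgtacgccaccttatctcagccggca
The 150 bases before an annotated start of transcription, from RefSeq on GRCm38.p6, are given for Ddx3x (chrX:13280872-13281021, plus strand, a start inside the annotated span of the gene), for the first start of Dhx30 (chr9:110117617-110117766, minus strand), for Ddx28 (chr8:106011487-106011636, minus strand), for Ddx1 (chr12:13249175-13249324, minus strand) and for Ddx25 (chr9:35558471-35558620, minus strand), the member with the widest difference between tissues. Capitals mark matches to the motifs described next.
Ddx3x: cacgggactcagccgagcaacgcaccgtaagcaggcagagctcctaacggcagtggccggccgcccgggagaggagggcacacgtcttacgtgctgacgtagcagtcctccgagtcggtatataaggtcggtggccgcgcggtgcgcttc
Dhx30: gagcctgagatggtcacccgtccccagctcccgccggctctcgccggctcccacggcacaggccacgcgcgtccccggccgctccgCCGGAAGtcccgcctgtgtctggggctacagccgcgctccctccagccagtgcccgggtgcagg
Ddx28: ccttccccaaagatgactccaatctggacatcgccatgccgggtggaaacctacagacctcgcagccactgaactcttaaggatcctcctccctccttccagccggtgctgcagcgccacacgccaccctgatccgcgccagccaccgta
Ddx1: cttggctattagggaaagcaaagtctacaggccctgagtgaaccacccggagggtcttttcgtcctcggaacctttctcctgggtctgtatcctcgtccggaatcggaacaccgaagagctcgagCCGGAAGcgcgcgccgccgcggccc
Ddx25: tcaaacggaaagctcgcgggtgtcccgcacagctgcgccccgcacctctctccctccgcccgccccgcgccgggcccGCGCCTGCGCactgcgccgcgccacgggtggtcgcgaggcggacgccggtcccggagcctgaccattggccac

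Promoters were found for 39 of the 44 genes. Over the 250 bases before the start, read on both strands, CCGGAAG, the core of ETS factor sites, was in 32.7% of the 49 promoters of these genes and in 6.91% of all 32851 promoters. It was in the promoters of 15 of the 39 genes, among them Dhx30, Ddx1, Ddx17, Ddx50 and Ddx54, which turn up below with differences in either direction. A pattern of NRF1 sites, GCGC, any base and TGCGC, was in 14.3% of the member promoters against 3.74% of all, TGACGTCA, the site of CREB factors, in 8.2% against 1.55%, and the core of interferon response elements, GAAA, any 2 bases and GAAA, in 4.1% against 2.98%. The motifs were picked with the results known, no stretch shown holds overlapping matches, and a match is a stretch of letters, not a measured site.

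Facts of the whole series that bear on these genes are few. Median intensity per array lay between 55.6 and 70.4. Averaged over their probes, the markers of hepatocytes, kidney tubule, skeletal muscle and neurons were highest in the tissue of their label. Group means of Alb were 8.37 to 8.64 in liver and at most 5.63 elsewhere. Not every marker probe followed its label. Ttr, listed for hepatocytes, had group means of 10.93 to 13.42 in brain. A Slc12a1 probe had 6.07 to 6.18 in kidney and up to 6.33 in liver. A Snap25 probe had 5.99 to 6.12 in brain and up to 6.47 in liver. Xist, the RNA of the inactive X, averaged 6.07 in XmO and 6.19 in XpO brains, against 10.41 in XX brains. The muscle array of XpO pool 3 was left out, because its column of intensities does not hold that array's signals, so muscle has 5 XO pools. Brain XmO pool 2 stood apart, with a mean correlation of 0.9735 with the other brain arrays, where the other 8 had 0.9836 to 0.9872. Within a tissue the pools hold different mice, and the p-values measure the spread between pools. The pools carry the same names in every tissue, so comparisons between tissues probably set samples of the same mice against each other.

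Ddx3x (chrX:13280496-13293988) was lower in XO livers, and this was the largest difference of any helicase probe there. Its level was 9.55, 9.80 and 9.85 in the XmO livers and 9.76, 9.62 and 9.51 in the XpO livers, against 10.27, 10.21 and 10.34 in the XX livers. All 6 XO pools lay under all 3 XX pools, and the XmO and XpO pools overlapped each other. The mean was 9.68 ± 0.14 (SD, n = 6) in XO livers and 10.27 ± 0.07 (SD, n = 3) in XX livers, a difference of -0.59 (SE 0.09, 95% interval -0.78 to -0.40), or an XO level 0.663 times the XX level (limma, adjusted p = 0.0141). Taken apart, XpO minus XX was -0.64 (limma, adjusted p = 0.0473) and XmO minus XX -0.54 (limma, adjusted p = 0.0188), both against the same XX pools in a fit of all 3 genotypes. Fitted with the XX pools alone, XpO missed the threshold (limma, adjusted p = 0.0841). The call was lost without XX pool 3 (difference within -0.63 to -0.56 over all pools left out in turn, limma, adjusted p = 0.0797), and so were nearly all calls of the tissue: without that pool 5 of 19878 probes passed the threshold instead of 1133.

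In kidney every XO pool again lay under every XX pool for Ddx3x, but the difference did not pass the threshold. The XmO kidneys had 9.07, 8.87 and 8.71 and the XpO kidneys 8.81, 9.16 and 8.74, against 9.45, 9.18 and 9.17 in the XX kidneys. The difference was -0.37 (SE 0.11, 95% interval -0.60 to -0.15, limma, adjusted p = 0.212). XO and XX groups did not overlap for 4 of 68 helicase probes in kidney, against 5.58% of all probes. An adipocyte marker varied between the kidney pools: the level of Adipoq, a fat cell hormone, was 6.23 to 10.11 in XmO, 9.50 to 10.82 in XpO and 9.80 to 11.73 in XX kidneys. The mean of the 3 adipocyte marker probes ranged over 5.90 to 7.36, 7.11 to 7.71 and 7.21 to 8.06 in the same order. All 7 leukocyte marker probes were lower in both XO groups, their mean being 7.40 to 7.53 in XmO and 7.53 to 7.74 in XpO, against 7.70 to 7.78 in XX kidneys. The part of these markers in the kidney values was not tested.

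In muscle the Ddx3x groups overlapped. XmO muscles had 9.54, 9.77 and 9.48 and the 2 usable XpO muscles 9.86 and 9.70, against 9.86, 9.74 and 9.70 in XX muscles. The difference was -0.09 (SE 0.09, 95% interval -0.30 to 0.11, limma, adjusted p = 0.655), and its sign turned to 0.05 with median scaling. Tested against each other, the liver effect minus the muscle effect was -0.50 (SE 0.20, limma, adjusted p = 0.104). Markers of other cells varied between the muscle pools. The mean of the 3 adipocyte marker probes was 8.69 to 9.23 in XmO, 8.14 to 8.71 in XpO and 8.05 to 8.49 in XX muscles. The level of Slc34a1, a phosphate transporter of the kidney, was 5.62 to 5.93 in XmO, 5.96 to 6.15 in XpO and 6.16 to 7.53 in XX muscles. The part of these markers in the muscle values was not tested.

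Brain was the tissue in which the 2 kinds of XO mice parted for Ddx3x. The XmO brains had 9.58, 9.66 and 9.50 and the XpO brains 8.75, 8.92 and 9.05, against 9.04, 9.07 and 9.02 in the XX brains. All XmO pools were above all XpO and XX pools, and the XpO pools overlapped the XX pools. XmO and XpO pools did not overlap for 14 of 66 helicase probes in brain, against 18.05% of all probes. XO against XX as 1 group gave 0.20 (SE 0.20, limma, adjusted p = 1), while XmO minus XpO was 0.67 (SE 0.09, 95% interval 0.48 to 0.87) at a limma adjusted p of 0.0921, short of the threshold. XmO minus XX was 0.54 (limma, adjusted p = 0.183) and XpO minus XX -0.14 (limma, adjusted p = 1). Without brain XX pool 3 and XmO pool 2 the XmO minus XpO difference was 0.63 (limma, adjusted p = 0.213). Ttr, a transcript of the choroid plexus in brain, was 12.84 to 13.81 in XmO, 8.60 to 12.70 in XpO and 7.03 to 14.46 in XX brains, and the mean of 7 leukocyte marker probes was 7.37 to 7.64, 7.54 to 7.82 and 7.70 to 7.74 in that order. Their part in the Ddx3x values was not tested.

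**Figure D1:**
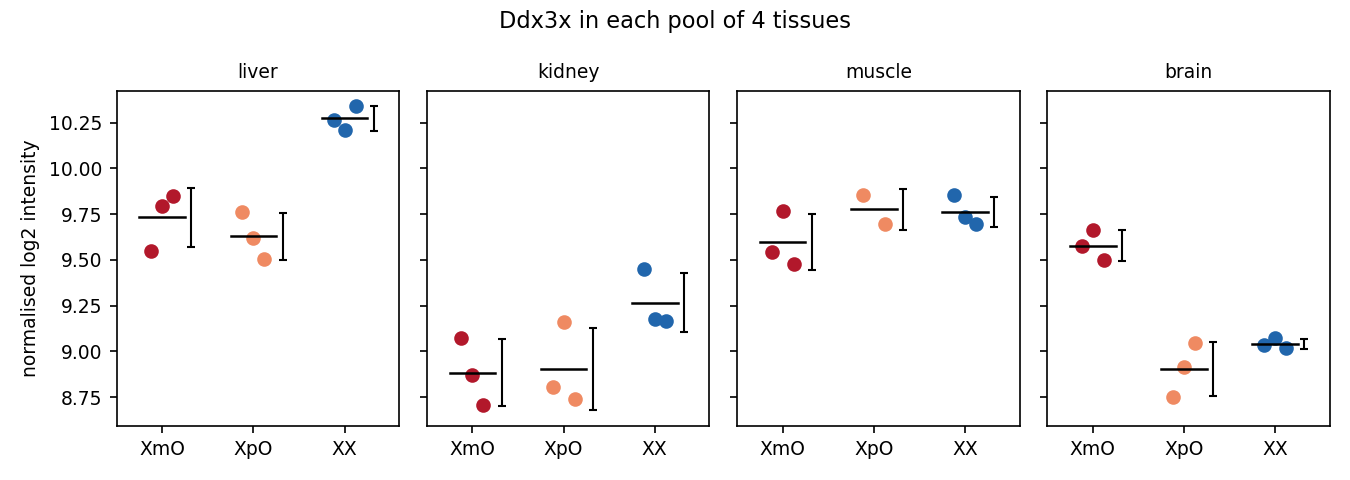
Normalised log2 intensity of the Ddx3x probe in each pool of liver, kidney, muscle and brain, by genotype. Points are pools, horizontal lines are means and error bars 1 SD; the liver XO pools lie at 9.51 to 9.85, under the XX pools at 10.21 to 10.34, and the brain XmO pools at 9.50 to 9.66 lie above the others.

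The effect of a single X on Ddx3x differed between liver and brain when tested directly. The liver effect minus the brain effect was -0.79 (SE 0.20, limma, adjusted p = 0.0235), with liver minus kidney at -0.22 (adjusted p = 0.709) and kidney minus brain at -0.57 (adjusted p = 0.483), all from the same limma fit over 35 arrays. In that fit the brain effect averages XmO and XpO pools that lay apart. By quantitative PCR the paper reported Ddx3x as significantly higher in XX than in XO liver, muscle and brain, but not kidney. Those PCR data were not analysed here. Across the tissues as a whole, Ddx3x averaged 9.88 ± 0.32 (SD, n = 9) in liver, 9.71 ± 0.14 (n = 8) in muscle, 9.17 ± 0.32 (n = 9) in brain and 9.02 ± 0.25 (n = 9) in kidney. Tissues next to each other in that order overlapped pool by pool, and so did liver and brain. The kidney pools, at 8.71 to 9.45, lay under the muscle pools at 9.48 to 9.86 and the liver pools at 9.51 to 10.34.

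Beside Ddx3x, 3 autosomal helicases passed the threshold in liver, and all 3 were higher in XO livers. In all 4 of the 60 probes were called there (limma, adjusted p under 0.05), where 5.7% of all 19878 probes of the tissue were called, 584 of these 1133 higher in XO. That is near the share of the tissue as a whole. Median scaling left 6 of the 60 called, with 1427 calls over all probes, 90.3% instead of 51.5% of them being higher in XO.

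Dhx30, which in human cells is needed to assemble mitochondrial ribosomes (chr9:110084319-110117616), had 10.68, 10.58 and 10.71 in the XmO livers and 10.60, 10.67 and 10.61 in the XpO livers, against 10.44, 10.26 and 10.20 in the XX livers. Every XO pool was above every XX pool, by a difference of 0.34 in the means (SE 0.07, limma, adjusted p = 0.0289), an XO level 1.27 times the XX level. Ddx28, a mitochondrial helicase that also acts on those ribosomes in human cells (chr8:106009616-106011486), had 8.11, 7.99 and 7.94 in the XmO livers and 8.03, 7.93 and 7.99 in the XpO livers, against 7.61, 7.89 and 7.60 in the XX livers. The groups did not overlap, with XX pool 2 close to the lowest XO pool (difference 0.30, SE 0.08, limma, adjusted p = 0.0468). Ddx47, a nucleolar protein of ribosomal RNA processing (chr6:135011612-135023776), had 10.96, 10.93 and 11.16 in the XmO livers and 11.10, 11.08 and 11.07 in the XpO livers, against 10.73, 10.78 and 10.70 in the XX livers. Again no pool overlapped (difference 0.31, SE 0.07, limma, adjusted p = 0.0329).

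These 3 calls depended on single pools. The Dhx30 call was lost in 4 of the 9 fits that left out 1 pool, the Ddx47 call in 6 and the Ddx28 call in 8, with adjusted p up to 0.115, 0.126 and 0.183, each time the highest without XX pool 3 (limma), and none of the differences changed sign. The Ddx28 difference was 0.18 with the authors' normalised values, and median scaling gave 0.52 for Dhx30 and 0.51 for Ddx47, all called. Other probes of the same genes were not called. Dhx30 has 4 probes, of which the one detected in liver beside the called one differed by 0.10, and the 2 other detected Ddx47 probes by 0.06 and -0.02. Of the 15 helicases with more than 1 probe detected in liver, 7 had all probes on the same side of 0.

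**Figure D2:**
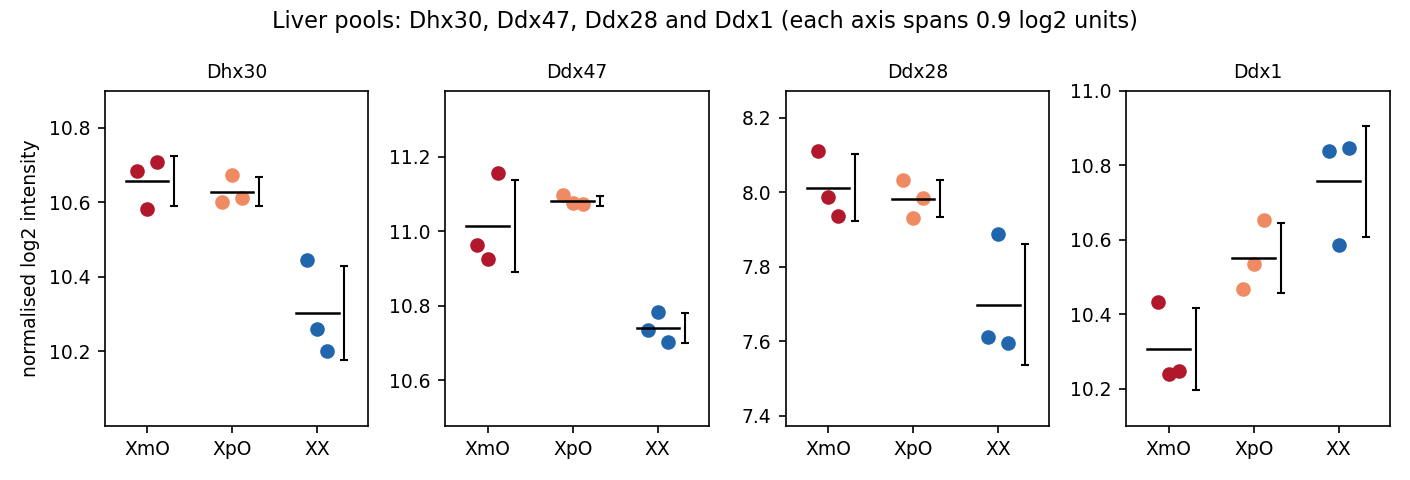
Normalised log2 intensity of the called Dhx30, Ddx47 and Ddx28 probes and of Ddx1 in the 9 liver pools, by genotype; points are pools, lines means and bars 1 SD. For Dhx30, Ddx47 and Ddx28 every XO pool is above every XX pool, and for Ddx1 the XmO pools are lowest.

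Ddx1, part of the ligase that joins spliced transfer RNAs in human cells (chr12:13219307-13249174), was lower in XmO livers only as tested against XX. Its level was 10.43, 10.24 and 10.25 in the XmO livers and 10.47, 10.53 and 10.65 in the XpO livers, against 10.84, 10.59 and 10.85 in the XX livers. XmO minus XX was -0.45 (SE 0.10, limma, adjusted p = 0.0260) and XpO minus XX -0.21 (limma, adjusted p = 0.273), and the direct difference, XmO minus XpO, was -0.25 (limma, adjusted p = 0.454). With median scaling that last difference was -0.46 and was called (limma, adjusted p = 0.0479). XO as 1 group gave -0.33 (limma, adjusted p = 0.0701).

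The next liver probes fell just short of the threshold. A probe of Ddx50, a nucleolar paralogue of Ddx21, differed by -0.34 (limma, adjusted p = 0.0544), one of Ddx31, also nucleolar, by 0.35 (limma, adjusted p = 0.0583) and Ddx54, a nucleolar protein, by 0.22 (limma, adjusted p = 0.0712). The groups did not overlap for any of these, but the second probes of Ddx50 and Ddx31 differed by less. Ddx31 read 6.06 to 6.44 in XO and 5.67 to 5.99 in XX livers, where probes counted as detected in no tissue had a median of 5.69 and a 95th percentile of 5.90. In all, 11 of the 60 probes had groups that did not overlap, 9 with XO above, against 15.22% of all liver probes. The median difference was 0.056 over the 60 helicase probes and 0.005 over all probes, and 38 of the 60 were higher in XO, or 49 with median scaling. Leukocyte markers moved in these livers too: all 7 probes for Cd74, Cd52, Lyz2 and Coro1a were lower in both XO groups, their mean being 7.43 to 7.63 in XmO and 7.56 to 7.67 in XpO, against 7.81 to 7.92 in XX livers. Their part in the helicase values was not tested.

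**Figure D3:**
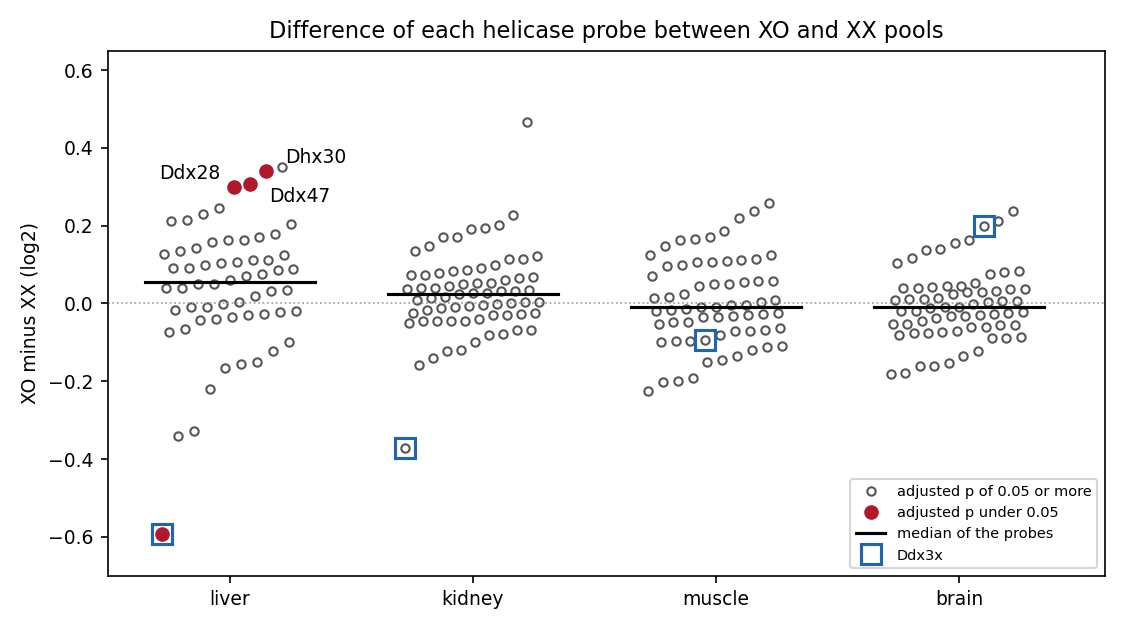
XO minus XX difference (log2) of every detected helicase probe in liver, kidney, muscle and brain; each point is a probe, filled where the limma adjusted p was under 0.05, squares mark Ddx3x and lines are medians. The 4 called probes are in liver, with Ddx3x at -0.59 and Dhx30, Ddx47 and Ddx28 at 0.30 to 0.34.

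By role, the called liver probes fell in 3 of 10 groups. Over all liver probes 5.7% were called and 51.1% were higher in XO. Of the 3 detected probes of the mitochondrial helicases, Ddx28 and Dhx30, all were higher in XO livers and 2 were called, with a median difference of 0.30. Of the 23 probes of the 16 ribosome biogenesis helicases, 16 were higher and 1 was called, with a median of 0.076. The 8 probes of translation and mRNA fate, the group of Ddx3x, Ddx1, Ddx6, Dhx29, Dhx34 and Dhx36, had a median of -0.067, with 2 higher and Ddx3x called lower. None of the 8 splicing, 5 transcription coregulator, 5 innate sensing or 3 export probes was called in liver. The coregulators Ddx5, Ddx17, Ddx20 and Dhx9 were measured higher in 7 of 7 probes in kidney (median 0.149, none called) and in 2 of 6 in muscle (median -0.084, none called), where 52% and 49.1% of all probes were higher. These are a few of the 40 pairs of a role and a tissue, picked after their values were seen. The counts describe the probes, and several probes of a gene are not independent.

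No helicase probe was called between XO and XX in kidney, muscle or brain with limma, where 0.047%, 0.00917% and 0.00402% of all probes were called. At an unadjusted p under 0.05 there were 15 of 60 helicase probes in liver and 1 of 66 in brain, with 9 of 68 in kidney and 8 of 64 in muscle. Over all probes the shares were 26.26% in liver, 2.68% in brain, 12.84% in kidney and 15.5% in muscle, so the helicases lay near or below the share of their tissue. The smallest p in kidney beside Ddx3x was that of a Ddx21 probe at 0.47 (SE 0.15, adjusted p = 0.251 by limma). Ddx21 drives ribosomal RNA synthesis in the nucleolus, and its second probe differed there by -0.01. A Ddx17 probe at 0.23 and Dhx40 at 0.19 followed in kidney (adjusted p = 0.266 and 0.268 by limma). In muscle the same second probe differed by 0.22 (adjusted p = 0.240 by limma), with a Ddx10 probe at -0.23 and the splicing and export factor Ddx39b at -0.19. In brain a Ddx10 probe differed by -0.15, Dhx15, which takes spliceosomes apart, by 0.24 and a probe of Ddx19b, an export factor, by -0.12, all at an adjusted p of 1 by limma. The median over the helicase probes was -0.009 in brain, 0.025 in kidney and -0.009 in muscle, against -0.002, 0.005 and -0.003 over all probes. The probes measured higher in XO were 31 of 66 in brain, 41 of 68 in kidney and 29 of 64 in muscle, which median scaling made 19, 31 and 54.

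The XO pools were also taken apart by parent of the X, the XmO mice being of another cross than the XpO and XX mice. In the tissue as a whole the XmO pools gave more calls than the XpO pools did against the same XX pools. In liver 3 helicase probes (Ddx3x, Ddx1 and Dhx30) were called for XmO minus XX, where 7.8% of all probes were, and 1 (Ddx3x) for XpO minus XX, where 0.146% were. In kidney, muscle and brain no helicase probe was called in either, against 0.713%, 0.16% and 0.0282% of all probes for XmO minus XX and 0.0214%, 0.0138% and 0.00804% for XpO minus XX (limma). The difference between the 2 numbers of calls was not tested.

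XmO and XpO pools were set against each other directly to ask whether the parent of the single X mattered, bearing in mind that the crosses differ too. No helicase probe was called in any tissue (limma), where 0.0503% of all probes were called in liver, 0.0161% in brain, 0.0897% in kidney and 0.0138% in muscle. At an unadjusted p under 0.05 there were 8 of 66 helicase probes in brain, 8 of 68 in kidney, 3 of 60 in liver and 0 of 64 in muscle, where the shares over all probes were 11.19%, 11.24%, 9.7% and 9.13%. After Ddx3x, the smallest p in brain was that of Dhx15, at 10.03 ± 0.06 in XmO and 9.66 ± 0.08 in XpO brains (SD, n = 3 each), a difference of 0.38 (limma, adjusted p = 0.201) with no overlap. Ddx25 averaged 11.19 ± 0.09 in XmO and 11.50 ± 0.12 in XpO brains (SD, n = 3 each, difference -0.31, limma, adjusted p = 0.323), again with no overlap. Such a lack of overlap between XmO and XpO brains was seen for 14 of the 66 helicase probes and 18.05% of all probes. In kidney a Ddx24 probe and Dhx32 had differences of -0.20 and -0.19 (adjusted p = 0.254 and 0.268 by limma). The liver probes with the smallest p were Ddx21 at 0.30 and Ddx1 at -0.25, and those of muscle Ddx19b at 0.20 and Dhx57 at 0.18 (adjusted p = 0.441 to 0.563 by limma).

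Differences of the XO effect between tissues were tested for each helicase probe detected in both. Between liver and muscle 8 of 59 were called, with 11.2% of all probes. Ddx17 (2 probes, 0.43 and 0.27), Ddx31 (0.50), Ddx47 (0.41), Dhx30 (0.33) and Dhx38 (0.23) had the higher effect in liver, and Ddx1 (-0.49) and Ddx50 (-0.39) the lower (limma, adjusted p = 0.00683 to 0.0426). Ddx17 is a coregulator of transcription and Dhx38 a spliceosomal helicase. The bright Ddx17 probe shows the pattern: 11.91, 12.06 and 11.97 in XmO and 11.99, 12.12 and 11.87 in XpO livers lay above 11.85, 11.78 and 11.64 in XX livers, while 11.76, 11.65 and 11.87 in XmO and 11.86 and 11.87 in XpO muscles lay below 12.15, 11.96 and 11.89 in XX muscles. Neither tissue alone passed the threshold for it (0.23 in liver and -0.20 in muscle, adjusted p = 0.0834 and 0.293 by limma). These calls rest on the scaling: with median scaling Ddx17 alone stayed called between liver and muscle.

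Between liver and brain 2 of 59 probes were called, Ddx3x and Dhx30 (0.33, adjusted p = 0.0356 by limma), with 4.45% of all probes, and median scaling made these 8. Between liver and kidney no helicase probe was called, with 0.15% of all probes, and between kidney and muscle none, with 0.688% (limma). Between kidney and brain and between muscle and brain no probe of any gene was called, 0% in each case.

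Apart from genotype, the helicases varied less between tissues than most probes. Over the 59 probes detected in all 4 tissues the median range of the tissue means was 0.73, against 0.96 over all 17020 such probes, and 17 of the 59 (28.8%) had a range over 1, against 48.2% of all. Liver was the highest tissue for 23 of them, muscle for 19, brain for 11 and kidney for 6. Among all probes 33.2% were highest in liver, 27.3% in muscle, 22.5% in brain and 17% in kidney. The probes with the smallest spread were for Ddx47, with tissue means of 8.35 in brain, 8.37 in kidney, 8.37 in liver and 8.39 in muscle, for Ddx51, a nucleolar helicase, at 7.95 to 8.14, and for Ddx31 at 5.93 to 6.13, which is near the level of undetected probes.

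Ddx25 stood out in brain. This helicase, known in the mouse for mRNA export and storage in male germ cells, had 11.11 to 11.65 over the 9 brain pools, against 6.40 to 6.87 in liver, 6.15 to 6.49 in kidney and 6.18 to 6.44 in muscle, 25.5-fold higher in brain than in liver. It was the only one of 70 probes called higher in brain (at least 2-fold above each other tissue, each limma adjusted p under 0.05), where 8.46% of all 28885 probes were. At 1.5-fold 7 were called there, a cut-off at which the share of all probes was not counted. The others were Ddx55 (1.91-fold above the next tissue), Dhx30 and a Ddx24 probe (1.76- and 1.77-fold), Ddx17 (1.68-fold), the second Ddx24 probe (1.58-fold) and Dhx57 (1.57-fold).

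Liver was the other tissue with calls, 3 of 70 probes, with 4.22% of all probes. Dhx58, also known as LGP2, regulates the sensing of viral RNA, and its brighter probe had 8.00 to 8.57 in liver, against 6.33 to 6.50 in kidney, 6.15 to 6.61 in muscle and 6.04 to 6.54 in brain, 3.47-fold over the next tissue. Its second probe was 3.23-fold higher in liver. Ddx58, also known as RIG-I, is the sensor in the same pathway. Its brightest probe averaged 8.19 in liver, 7.74 in kidney, 6.01 in brain and 6.72 in muscle, with no overlap between any tissues, but the step from kidney to liver was under 2-fold. A second probe kept the order liver, kidney, muscle and brain, and the other 2 were not detected in every tissue. Ddx11, a DNA helicase of sister chromatid cohesion, had 8.14 to 8.54 in liver, against 7.22 to 7.41 in kidney, 6.72 to 6.99 in muscle and 6.36 to 6.88 in brain, 2.14-fold over kidney, a call lost with median scaling. No helicase probe was called higher in kidney or muscle, where 3.14% and 4.65% of all probes were. Ddx4, the germ cell marker Vasa, was 1.61-fold higher in muscle than in the next tissue, at a mean of 6.80 against 6.02 to 6.11 elsewhere.

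**Figure D4:**
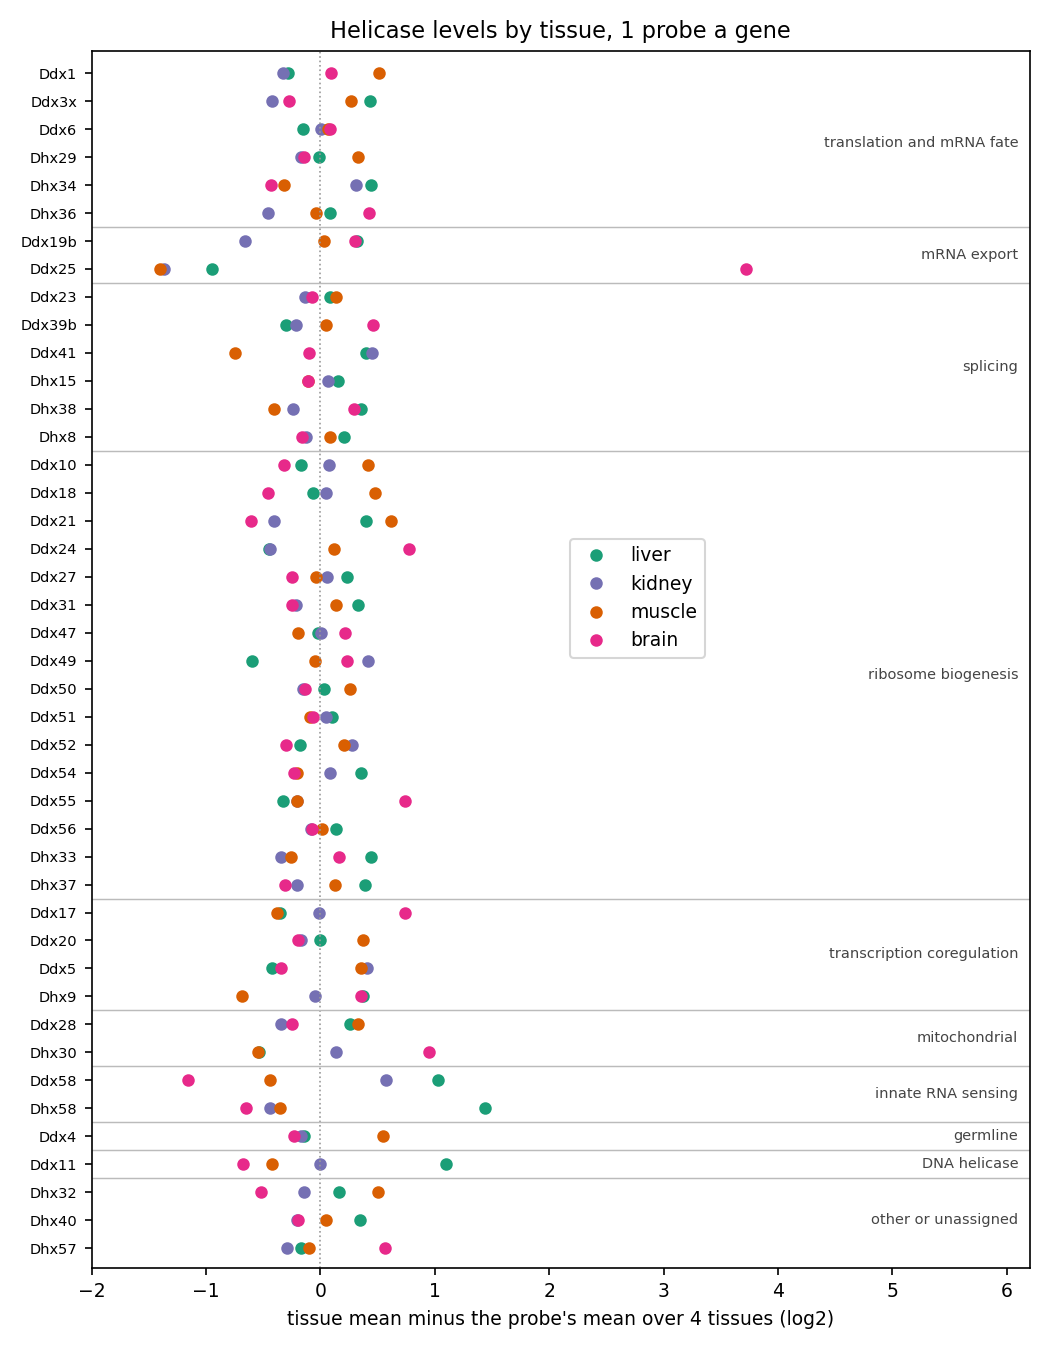
Mean level of 43 helicases in liver, kidney, muscle and brain, each minus the mean of the 4 tissues (log2), for the brightest probe of a gene that was detected in all 4 tissues, grouped by role. Most points lie within 1 unit of 0; Ddx25 in brain, and Dhx58, Ddx58 and Ddx11 in liver, are among those farther out.

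The innate sensor Dhx58, highest in liver, had no call by genotype there. Its brighter probe had 8.30, 8.05 and 8.11 in XmO and 8.37, 8.44 and 8.38 in XpO livers, against 8.00, 8.56 and 8.38 in XX livers, a difference of -0.04 for XO (SE 0.12, adjusted p = 0.850 by limma). XO and XX pools overlapped, and the 95% interval of that difference was -0.31 to 0.22. The XmO pools lay under the XpO pools for this probe, with a difference of -0.24 (SE 0.13, adjusted p = 0.570 by limma). XmO and XpO livers did not overlap for 7 of 60 helicase probes, against 17.2% of all probes. The second Dhx58 probe had 8.08, 7.65 and 7.63 in XmO and 7.93, 7.90 and 7.94 in XpO livers, which overlapped. Its difference for XO against XX was 0.02. Of 9 interferon-stimulated genes beside the members (11 probes), none was called in liver, and none in any tissue, for XO against XX (limma). With 5.7% of all liver probes called, 11 probes are too few for this to set them apart.

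The helicases outside these names and their partners had 1 call in each list for XO against XX. Both calls were in liver, near the share of 5.7% of all probes called there. Of 15 probes for 9 other helicases of the same superfamily, 1 was called in liver and none elsewhere for XO against XX: Eif4a2, a translation initiation helicase, was lower in XO livers, with a difference of -0.33 (SE 0.08, adjusted p = 0.0369 by limma). Of 20 probes for 16 protein partners of helicases, 1 was called in liver and none elsewhere: Rbm8a, a core protein of the exon junction complex, was higher by 0.33 in XO livers (SE 0.07, adjusted p = 0.0289 by limma). For XmO against XpO none of either list was called in any tissue.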

How the data were processed

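RNA of pooled tissue was hybridised to Illumina Mouse WG-6 arrays. The authors exported intensities from BeadStudio and, per their methods, quantile normalised log2 values with lumi and tested XX against XO in each tissue with limma. The deposited intensity table holds values for 46632 probes of 36 arrays, and the deposited log2 table holds 28885 probes, a probe being present in a tissue where the authors counted it as detected. No column belonged to other samples.

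Here intensities were raised to at least 1, put on the log2 scale and quantile normalised over 35 arrays. The array of muscle XpO pool 3 was left out, since its intensity column did not rank with its normalised values. The other arrays did so at a rank correlation of at least 0.99994. Each tissue was fitted on its detected probes with limma 3.58.1 in R 4.3.3, with Benjamini-Hochberg adjustment over all of them and a threshold of 0.05. Differences between tissues came from a fit over all 35 arrays. Of the detected probes 21014 had 1 gene symbol, 6 had several and 7865 had none. The procedure was tested on simulated data. The number of arrays limits the precision.

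The members and lists were chosen with earlier results of these data known. Named were Ddx3x and members past the threshold. In each tissue the 3 of smallest p for XO against XX among the rest, and the 2 for XmO against XpO, were added. Also named were up to 4 called higher in a tissue, the 3 with the smallest spread over tissues, and called genes of the other lists. Members and values beyond that rule (Ddx55, Dhx38, Ddx58 and Ddx4, and the genotype values of Ddx25 and Dhx58) were chosen after they were seen. Other normalisations, background correction, probe filters, pools left out, replicate numbers as a block and other groupings were tried as alternatives.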

Additional observations from a re-analysis of the deposited data

Results flagged for a closer look

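Of 113 groups, each the XO pools of a tissue for 1 probe, 7 had 1 pool far from the other XO pools, where chance gives about 1 in 20. They were Ddx54 in kidney XpO pool 1 (10.38, the other XO pools 10.52 to 10.58), Dhx40 in liver XpO pool 2 (6.85, the others 7.09 to 7.23) and in kidney XmO pool 1 (6.42, the others 6.60 to 6.70), and Dhx32 in muscle XpO pool 1 (11.03, the others 10.79 to 10.82). A Ddx10 probe was set apart in liver XmO pool 2 (6.72, the others 6.26 to 6.42) and in brain XpO pool 1 (6.50, the others 6.30 to 6.37), and Dhx58 in brain XmO pool 2 (6.54, the others 6.07 to 6.21), an array that also correlated least with the other brain arrays. XX pools were not part of these groups, and some lay as far out, such as Dhx40 in the XX kidneys at 6.42 to 6.44.

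The XO effect differed between tissues for 10 probe and tissue pairs by a direct test. As liver minus muscle these were Ddx1 (-0.49), Ddx17 (0.43 and 0.27), Ddx31 (0.50), Ddx47 (0.41), Ddx50 (-0.39), Dhx30 (0.33) and Dhx38 (0.23). As liver minus brain they were Ddx3x (-0.79) and Dhx30 (0.33).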

How the results depend on the processing

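The liver count of 4 called probes was 7 with the authors' normalised values, 2 with the mean of a gene's probes, 0 with the XpO pools alone, 1 with the XmO pools alone and 0 to 3 with 1 pool left out, 0 being without XX pool 3. Over all liver probes the authors' values gave 1328 calls, against 1133, and leaving out XX pool 3 gave 5. For the other fits just listed, calls over all liver probes were not counted, so these helicase counts cannot be set against a share. Ddx3x in liver stayed between -0.63 and -0.56 with 1 pool left out, and was -0.64 with XpO alone (limma, adjusted p = 0.0841). The kidney count of 0 was 0 to 1 with 1 pool left out (Ddx21, 0.71, without XX pool 3, limma, adjusted p = 0.0373). Calls over all kidney probes were not counted in those fits. Median scaling gave 2 calls in muscle for XO against XX (Ddx1 and Ddx21), where it called 671 of all 21810 probes. Of these 671, 94.5% were higher in XO. Median scaling also gave 1 call in liver for XmO against XpO (Ddx1). It turned Ddx3x in muscle to 0.049, and XpO alone turned it to 0.013 in muscle and to -0.14 in brain (limma, adjusted p = 0.784, 0.970 and 1). For differences between tissues, median scaling gave 1 call for liver and kidney, 1 for liver and muscle, 8 for liver and brain and 1 for kidney and muscle, and moved the median of all probes to 0.11 for liver minus brain and -0.11 for kidney minus muscle. The authors' values gave 5 for liver and muscle and 1 for kidney and muscle. Under these settings, calls over all probes were not counted between tissues or for XmO against XpO. Probes higher in liver were 2 instead of 3 with median scaling, Ddx11 being lost. Those higher in brain were 2 with median scaling and 7 at 1.5-fold, and those higher in muscle 1 at 1.5-fold. The shares of all probes higher in a tissue were not counted with median scaling or at 1.5-fold. The cause was not tested. The authors' values were not run for levels between tissues, because they look normalised within each tissue.

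With the replicate block 2 liver probes were called, Ddx47 and Ddx28 being lost (limma, adjusted p = 0.0551 and 0.0677). Calls over all probes were not counted with the block. Ddx3x in brain, XmO minus XpO, then had a limma adjusted p of 0.393. Pools of different genotypes hold different mice, so the numbers cannot mark shared animals. Deviations of same-numbered pools correlated at -0.58 to 0.37, with 4 of 30 pairs over 0.1. Whether the numbers mark arrays processed together was not tested. The block changed no other count of helicases for XO against XX, XmO against XpO, between tissues or by tissue level, and was not run for XmO or XpO alone against XX or for the other gene lists. The same pool in 2 tissues correlated over 0.1 in 31 of 51 pairs (median 0.118), and there the pool was the block.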
